A study of Mus musculus with 52 samples.

Results

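The genes that encode the receptors for GABA and glutamate, the main inhibitory and excitatory transmitters of the brain, were followed in the nucleus accumbens, hypothalamus and hippocampus of mice infused with insulin or saline. Members were all protein-coding genes of the count table whose symbol names a subunit of the GABA-A or GABA-B receptors, or of the AMPA, kainate, delta, NMDA or metabotropic glutamate receptors. The rule took 47 of the 46071 genes in the table: 19 GABA-A, 2 GABA-B, 4 AMPA, 5 kainate, 2 delta, 7 NMDA and 8 metabotropic glutamate genes.

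All mice were 3-month-old C57BL/6J males, an inbred strain with no engineered allele named in the labels, and carried a jugular catheter. Insulin was infused at a low rate of 4 mU/kg/min or a high rate of 12 mU/kg/min, and the remaining mice received saline. A 20% glucose infusion held blood glucose steady, and brains were taken after 3 h of this clamp. RNA of whole dissected regions was sequenced in 52 libraries. The nucleus accumbens, in the ventral striatum, and the hippocampus gave 6 for each infusion. The hypothalamus gave 6 at the low rate, 5 at the high rate and 5 under saline. Nothing in the labels shows that replicate libraries come from different mice. Every p-value is therefore set by library-to-library spread, part of which may be technical.

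GABA-A receptors are chloride channels built from 5 subunits, most often alpha, beta and gamma, and the alpha subunit decides much of their drug response. Those that carry delta or alpha-5 sit largely outside synapses and give a steady inhibition. GABA-B receptors are pairs of G-protein-coupled subunits. AMPA, kainate and NMDA receptors are cation channels opened by glutamate, of which AMPA receptors carry most fast excitation and NMDA receptors gate calcium entry and plasticity, while the metabotropic receptors act through G proteins. Insulin signalling in neurons is known to alter the number of several of these receptors at the cell surface, a step that counts of RNA do not measure.

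The alpha subunits differ at 1 residue of the benzodiazepine site, which is a histidine in the subunits that bind classical benzodiazepines and an arginine in the 2 that do not. The coding stretch around that residue is shown for 5 alpha genes because the regions differ in which of these genes they express. Capitals mark the codon of that residue, and each stretch of 33 bases lies in a single coding exon of the gene, as read from the GENCODE M21 transcripts on GRCm38.
Gabra2 (chr5:71014490-71014522, minus strand): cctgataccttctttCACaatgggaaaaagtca
Gabra3 (chrX:72501153-72501185, minus strand): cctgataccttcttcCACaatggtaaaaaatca
Gabra4 (chr5:71641137-71641169, minus strand): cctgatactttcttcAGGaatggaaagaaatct
Gabra5 (chr7:57488876-57488908, minus strand): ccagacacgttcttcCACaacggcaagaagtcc
Gabra6 (chr11:42317632-42317664, minus strand): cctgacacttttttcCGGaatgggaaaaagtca
The capitals read CAC, histidine, in Gabra2, Gabra3 and Gabra5, and AGG or CGG, arginine, in Gabra4 and Gabra6. The stretch lies in exon 5 of 10 in Gabra2 and Gabra3, exon 6 of 11 in Gabra5 and exon 4 of 9 in Gabra4 and Gabra6. Gabra6, which is best known from cerebellar granule cells, had 4 reads over all 52 libraries, so in these regions Gabra4 made up the arginine class.

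Values are CPM, read counts scaled for library size with edgeR's trimmed mean of M values, and a log2 fold change is the first group over the second. Total counts ranged from 2453412 to 8279612 per library with a median of 4654641.5. Of the 47 members, 41 passed the filter on low counts in the hypothalamus, the nucleus accumbens and the saline libraries, and 39 in the hippocampus, where Gabre and Gabrq did not pass. The remaining 6 members were near the limit of detection everywhere. Their highest value in any library was 0.216 CPM for Gabra6, 0.197 CPM for Gabrp, 1.17 CPM for Gabrr1, 0.783 CPM for Gabrr3, 1.11 CPM for Grin3b and 0.27 CPM for Grm6. Gabrr1 and Gabrr3 encode rho subunits and Grm6 a receptor of ON bipolar cells, all best known from the retina. Exons of 20 members overlap another gene, by up to 1307 bases, for Grin1 (with Grin1os). Whether reads were assigned by strand is not stated, so these counts may hold reads of the neighbour.

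Some libraries stood apart. In 10 of 52, the deviation of genes from their region's average followed transcript GC content with a rank correlation above 0.4. These GC-leaning libraries included 3 of the 5 saline libraries of the hypothalamus (replicates 1, 2 and 5) and 0 of its 11 insulin libraries. In 5 hypothalamic libraries (low rate 1, 2 and 6, high rate 3 and 5) at least 1 of 5 peptide genes was below 1 CPM, and these are called peptide-poor. Another 5 libraries, from the nucleus accumbens, held Neurod6, a marker of cortical and hippocampal excitatory neurons, above 5 CPM (saline 1 and 3, low rate 2 and 4, high rate 5). This cut was applied to the nucleus accumbens only. Hypothalamic low-rate replicate 2 also held Neurod6 at 6.1 CPM. Its summed level of 6 excitatory neuron markers was 184 CPM, against 43.9 to 73.6 CPM in hypothalamic saline libraries. Drd1, a striatal marker, was at 155 to 467 CPM in nucleus accumbens libraries, against 4.66 to 56.9 CPM in the hypothalamus and 5.61 to 15.6 CPM in hippocampal libraries. Neurod6 was at 104 to 194 CPM in the hippocampus. In the hippocampus the summed level of 6 oligodendrocyte markers was 5680 to 17900 CPM at the low rate and 5380 to 7420 CPM at the high rate, against 2710 to 5020 CPM under saline.

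The receptor families differed in level between the regions under saline. Per kb of exon length, the summed level of the 4 AMPA genes was 245 ± 22.9 CPM per kb in the nucleus accumbens (SD, n = 6), 164 ± 28.8 in the hypothalamus (n = 5) and 426 ± 33.3 in the hippocampus (n = 6). The 7 NMDA genes summed to 88.1 ± 14.7, 67.6 ± 8.5 and 144 ± 10.0 CPM per kb in the same order of regions. The 2 GABA-B genes, which form 1 receptor, summed to 190 ± 14.8, 192 ± 10.3 and 246 ± 13.1. The means of both channel families were lowest in the hypothalamus, where AMPA sums did not overlap with the nucleus accumbens and NMDA sums did. The lowest hippocampal library was above the highest library of either other region for AMPA, NMDA and GABA-B genes. The 19 GABA-A genes summed to 385 ± 42.7 CPM per kb in the nucleus accumbens, 312 ± 82.2 in the hypothalamus and 378 ± 61.2 in the hippocampus, ranges that overlapped. Kainate genes summed to 69.9 ± 7.34, 65.1 ± 5.75 and 78.1 ± 16.9 CPM per kb in that order. Metabotropic genes were lowest in the hypothalamus, at 48.8 ± 3.86, against 73.4 ± 5.36 in the nucleus accumbens and 76.0 ± 9.3 in hippocampal libraries. Within families the top gene per length was Gabbr1 with 67.2 to 83.1% of GABA-B and Gria1 with 46.7 to 64.0% of AMPA. It was Grik5 with 49.6 to 66.1% of kainate and Grin1 with 38.0 to 48.0% of NMDA in every region. The length used is that of all annotated exons of a gene, which the expressed transcripts need not hold. It is 6043 bases for Gria1, 15548 for Gria2, 9700 for Grin1 and 24842 for Grin2b. By mean CPM, given below, Gria2 was above Gria1 in the nucleus accumbens and hypothalamus. Grin2b was likewise above Grin1 in the nucleus accumbens and hippocampus.

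**Figure D1:**
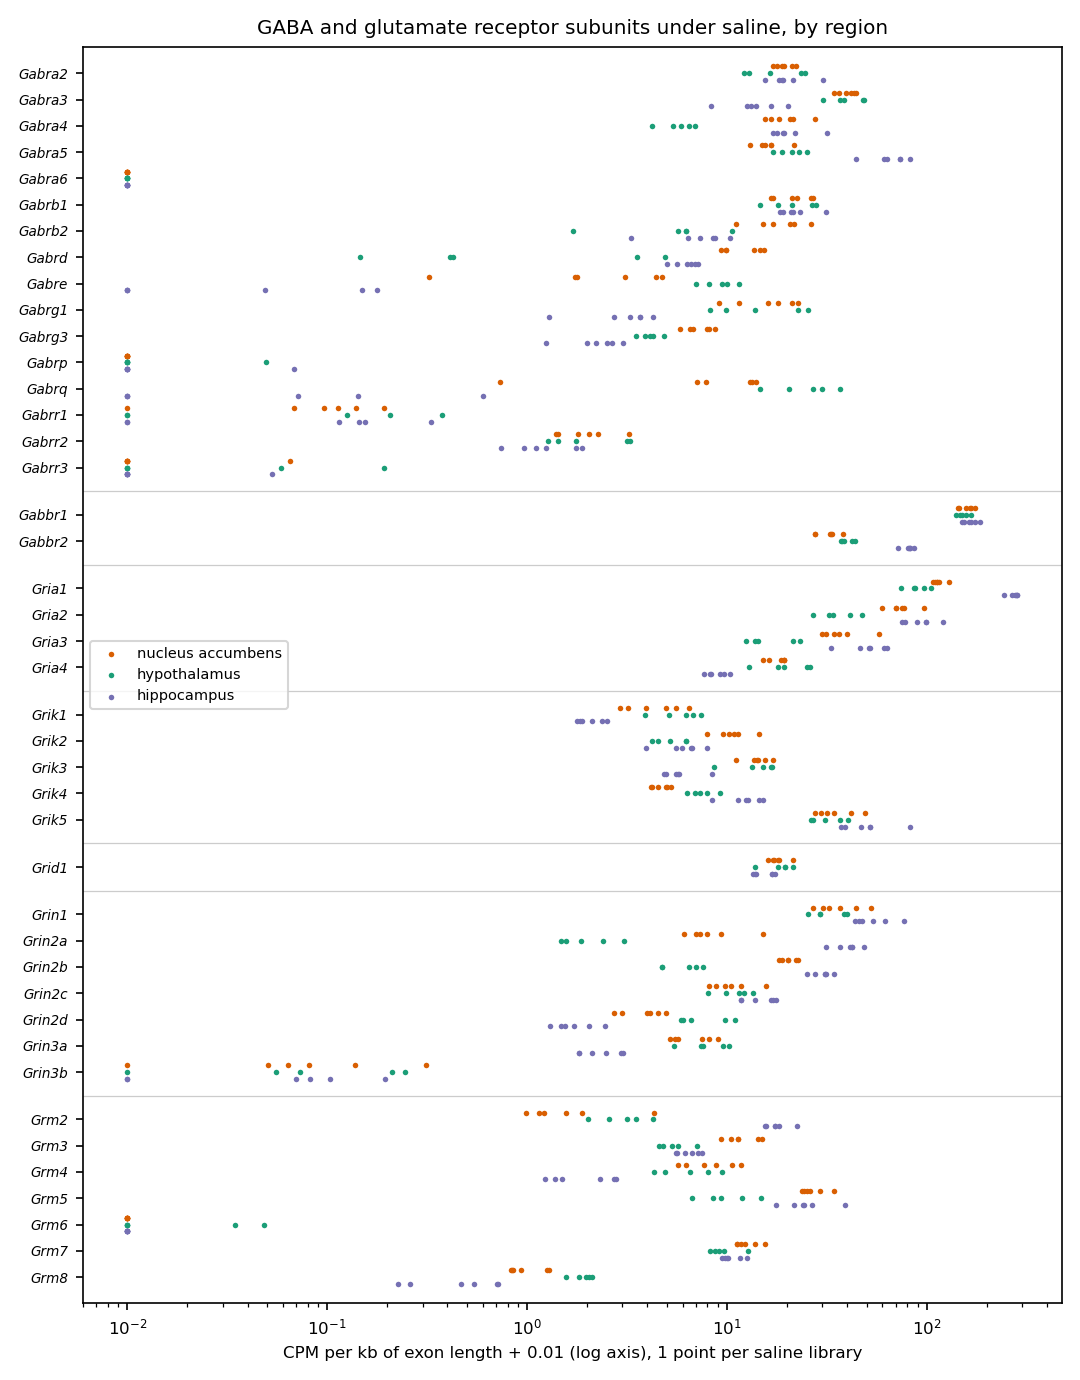
Level of 42 receptor genes in the saline libraries, in CPM per kb of exon length plus 0.01 on a log axis, with 1 point per library (6 nucleus accumbens, 5 hypothalamus, 6 hippocampus) and lines between families. Gabre and Gabrq are near 0 in the hippocampus only, and Grin2a is lowest in the hypothalamus.

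Between regions under saline, a larger share of the receptor genes than of all genes was called. In the hypothalamus against the hippocampus, 28 of 41 members passed an adjusted p of 0.05 in edgeR's quasi-likelihood test (68.3%; 13 higher, 15 lower), where 44.1% of the 14093 genes tested passed, 22.9% higher and 21.1% lower. The nucleus accumbens against the hippocampus gave 27 members (65.9%; 16 higher, 11 lower) on a background of 27.9%, with 14.2% higher and 13.7% lower. The nucleus accumbens against the hypothalamus gave 21 members (51.2%; 14 higher, 7 lower) on a background of 29.0%, with 13.9% higher and 15.1% lower. Altogether 33 members were called in at least 1 pair of regions. The 8 called in none included Gabbr1, the GABA-B subunit that binds GABA, Gabra2, Gabrb1, Gabrr2 and Grid1. The members' median log2 fold change was near that of all genes: -0.21 against 0.05 for hypothalamus over hippocampus, 0.09 against 0.00 for nucleus accumbens over hippocampus, and 0.05 against -0.05 for nucleus accumbens over hypothalamus. Fewer cells of a type and less RNA per cell cannot be told apart in bulk tissue. The summed level of 6 excitatory neuron markers had medians of 75.1 CPM in the nucleus accumbens, 46.9 CPM in the hypothalamus and 1700 CPM in hippocampal libraries. Its part in these differences was not tested. Each region appears in a pair of these comparisons, which therefore share libraries.

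All libraries of the hypothalamus lay above all hippocampal ones for 13 members and below for 13, on a background of 25.4% of genes with no overlap. For the nucleus accumbens against the hippocampus the numbers were 17 and 7 on a background of 17.1%, and against the hypothalamus 13 and 5 on 14.7%. The insulin libraries, which took no part in these fits, gave the same comparisons again. Of the 28 members called for hypothalamus against hippocampus, 28 were called in the same direction among low-rate libraries and 28 among high-rate libraries. For nucleus accumbens against hippocampus, 22 of 27 were called in the same direction at both rates. For nucleus accumbens against hypothalamus it was 13 of 21, with a single change of sign, that of Gabrb2 at the low rate. How many of all called genes repeated in this way was not counted. Whether the members repeated more or less often than other genes is therefore not known.

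The 2 epsilon and theta genes differed most between regions. Gabre, the epsilon subunit, was at 1.49, 8.22, 8.33, 14.6, 21.0 and 22.4 CPM in the nucleus accumbens saline libraries and at 33.0, 38.4, 44.6, 47.6 and 54.4 CPM in the hypothalamus. Of 6 hippocampal libraries, 3 had no read and the others 0.183, 0.659 and 0.789 CPM. Gabrq, the theta subunit, was at 3.86, 38.1, 42.1, 70.2, 71.5 and 74.6 CPM in the nucleus accumbens and 77.9, 109, 145, 160 and 196 CPM in the hypothalamus, against 0, 0, 0, 0.329, 0.713 and 3.16 CPM in the hippocampus. The 3 regions did not overlap for either gene. In reads, Gabre had 429 in the nucleus accumbens, 1209 in the hypothalamus and 7 in the hippocampus under saline, and Gabrq 1681, 3662 and 20, of which 16 came from 1 hippocampal library. Hypothalamus over hippocampus, the log2 fold change was 7.37 (SE 0.71) for Gabrq and 7.13 (SE 0.61) for Gabre, with adjusted p of 8.19e-08 and 1.03e-08. Nucleus accumbens over hippocampus it was 5.92 (SE 0.7) and 5.38 (SE 0.64), with adjusted p of 2.1e-06 and 1.42e-06. These folds rest on few hippocampal reads and their size is accordingly loose. Nucleus accumbens over hypothalamus, Gabre was at -1.75 (SE 0.37, adjusted p = 0.00156) and Gabrq at -1.45 (SE 0.46, adjusted p = 0.026). Without the GC-leaning libraries those 2 values were -1.74 and -1.76 with adjusted p of 0.062 and 0.136. The Gabrq call was also lost without nucleus accumbens saline replicate 2 or hypothalamus saline replicate 3 (log2 between -1.6 and -1.21 over the fits that left out 1 library).

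Gabre and Gabrq lie beside Gabra3 on the X chromosome, Gabre at chrX:72255999-72274803 and Gabra3 at chrX:72432681-72656848 on the minus strand and Gabrq at chrX:72825178-72842602 on the plus strand (GRCm38). The alpha-3 gene was also lowest in the hippocampus, with a smaller range. It was at 156 ± 14.9 CPM in the nucleus accumbens and 158 ± 30.2 CPM in the hypothalamus, against 55.5 ± 15.7 CPM in the hippocampus. The highest hippocampal library, at 79.1 CPM, was below the lowest of either other region, at 119 CPM. Its log2 fold change was 1.49 (SE 0.17, adjusted p = 5.96e-07) for nucleus accumbens over hippocampus and 1.51 (SE 0.17, adjusted p = 4.37e-07) for hypothalamus over hippocampus. Between nucleus accumbens and hypothalamus it was -0.02, with a 95% interval of -0.35 to 0.31. The 250 bases before a RefSeq start of each gene (GRCm38.p6) are shown because all 3 neighbours were lowest in the hippocampus. Gabra3 has 2 windows in that table, which overlap, and the first is shown. Capitals mark the motifs found, the GC box GGGCGG or its reverse complement CCGCCC in Gabre and Gabrq, and TTATA, the reverse complement of TATAA, in Gabra3.
Gabre (chrX:72274722-72274971, minus strand): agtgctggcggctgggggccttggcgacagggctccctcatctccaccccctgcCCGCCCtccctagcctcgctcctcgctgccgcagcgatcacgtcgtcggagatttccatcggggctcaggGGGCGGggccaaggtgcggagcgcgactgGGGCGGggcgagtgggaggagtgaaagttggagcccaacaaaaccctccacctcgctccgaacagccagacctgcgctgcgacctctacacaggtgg
Gabra3 (chrX:72656808-72657057, minus strand): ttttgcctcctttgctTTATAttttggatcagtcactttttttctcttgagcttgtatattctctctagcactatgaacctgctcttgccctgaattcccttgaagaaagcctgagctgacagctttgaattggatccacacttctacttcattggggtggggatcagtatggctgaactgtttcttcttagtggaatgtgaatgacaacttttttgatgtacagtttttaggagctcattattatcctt
Gabrq (chrX:72824928-72825177, plus strand): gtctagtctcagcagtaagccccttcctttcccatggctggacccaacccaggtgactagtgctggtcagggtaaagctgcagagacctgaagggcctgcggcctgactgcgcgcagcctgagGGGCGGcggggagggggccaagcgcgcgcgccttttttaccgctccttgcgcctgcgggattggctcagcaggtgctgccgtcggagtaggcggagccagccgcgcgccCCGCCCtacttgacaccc
The windows of Gabre and Gabrq were 68.8% and 67.2% GC with 21 and 19 CpG dinucleotides, and that of Gabra3 was 39.2% GC with 0. The other window of Gabra3 was 42.4% GC, also with 0. The RefSeq table held a promoter for 32 of the 47 members, in 39 windows. A GC box on either strand stood in 18 of these windows (46.2%), against 32.7% of the 32851 windows of the whole table, and TATAA or TTATA in 6 (15.4%), against 22.8%. The cyclic AMP response element TGACGTCA was in 0 of the 39 windows and in 1.55% of all, and the E-box CACGTG in 1 (2.56%) and 6.02%. The forkhead motif TGTTTAC or GTAAACA, a class of site that insulin-regulated FOXO factors bind, was in 1 (2.56%) and 3.17%.

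**Figure D2:**
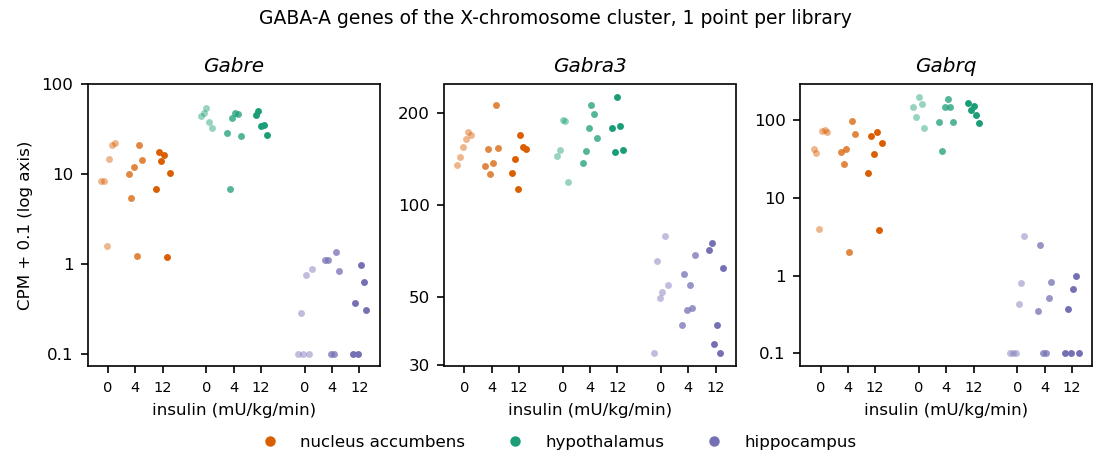
CPM plus 0.1 on a log axis for Gabre, Gabra3 and Gabrq, with 1 point per library, at insulin rates of 0, 4 and 12 mU/kg/min in each region. Hippocampal group means are the lowest for each gene at every rate, and 1 nucleus accumbens library per rate is far below the others for Gabre and Gabrq.

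The low nucleus accumbens points of Gabre and Gabrq came from libraries rich in Neurod6, though not from all of those. Saline 3, low rate 4 and high rate 5 had 1.49, 1.14 and 1.1 CPM of Gabre and 3.86, 1.89 and 3.8 CPM of Gabrq. The same libraries had 271, 285 and 290 CPM of Grin2a, the highest of their groups. Their summed level of 6 cortical and hippocampal excitatory neuron markers was 993, 799 and 831 CPM, against group medians of 75.1, 107 and 63.9 CPM. Saline 1 and low rate 2, also above 5 CPM of Neurod6, were not among the low points. They held 371 and 339 CPM of these markers. Their Neurod6 was at 5.4 and 11.6 CPM, against 17.5, 20.1 and 23.4 CPM in the low ones. Without the saline libraries above 5 CPM of Neurod6, nucleus accumbens over hypothalamus was -1.34 for Gabre (adjusted p = 0.00309), -1.06 for Gabrq (adjusted p = 0.0469) and 1.91 for Grin2a (adjusted p = 1.42e-06) by the same edgeR test.

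Other GABA-A subunits also split by region. Of 15 tested, 5 were higher and 4 lower in the hypothalamus than in the hippocampus (60.0% called, against 44.1% of all genes). In the nucleus accumbens 6 were higher and 2 lower than in the hippocampus (53.3%, against 27.9%), and 5 higher and 2 lower than in the hypothalamus (46.7%, against 29.0%). Gabra5, the alpha-5 subunit of extrasynaptic hippocampal receptors, was at 48.8 ± 8.49 CPM in the nucleus accumbens and 62.6 ± 9.71 CPM in the hypothalamus, against 198 ± 39.6 CPM in the hippocampus. Its log2 fold change over the hippocampus was -2.02 (SE 0.15, adjusted p = 2.21e-09) in the nucleus accumbens and -1.65 (SE 0.16, adjusted p = 4.92e-08) in the hypothalamus, with no overlap of libraries. Gabra4, which often pairs with delta, was at 122 ± 26.2 CPM in the nucleus accumbens, 35.0 ± 6.5 CPM in the hypothalamus and 128 ± 33.2 CPM in hippocampal libraries. The hypothalamus stood apart for it, at -1.88 (SE 0.19, adjusted p = 7.39e-08) against the hippocampus, and nucleus accumbens over hypothalamus was 1.80 (SE 0.19, adjusted p = 5.38e-07). Gabra2 averaged 148 ± 15.3, 136 ± 44.1 and 157 ± 39.5 CPM in the nucleus accumbens, hypothalamus and hippocampus, with overlapping libraries.

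The gamma and delta genes differed between regions as well. Gabrg1, a gamma subunit enriched in few brain areas, was at 129 ± 42.2 CPM in the nucleus accumbens and 126 ± 60.6 CPM in the hypothalamus, against 24.8 ± 8.25 CPM in the hippocampus. Over the hippocampus its log2 fold change was 2.38 (SE 0.31, adjusted p = 4.47e-06) in the nucleus accumbens and 2.34 (SE 0.32, adjusted p = 4.63e-06) in the hypothalamus. Gabrg3 was at 87.4 ± 13.2, 49.2 ± 5.91 and 27.1 ± 7.39 CPM in the nucleus accumbens, hypothalamus and hippocampus, with nucleus accumbens over hippocampus at 1.70 (SE 0.17, adjusted p = 1.04e-07). Gabrd, the extrasynaptic delta subunit, was at 26.8 to 44.3 CPM in the nucleus accumbens (median 34.0), at 0.392, 1.16, 1.2, 10.2 and 14.1 CPM in the hypothalamus and at 14.4 to 20.7 CPM in hippocampal libraries (median 18.6). The 5 hypothalamic libraries fell into low and higher values, of which both higher ones, replicates 2 and 5, were GC-leaning, as was replicate 1 at 1.16 CPM. Nucleus accumbens over hypothalamus, Gabrd was at 2.60 (SE 0.48, adjusted p = 0.000492), and at 5.07 without GC-leaning libraries (adjusted p = 8.82e-08).

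Among beta subunits, Gabrb2 was at 119 ± 33.8, 38.8 ± 20.2 and 47.3 ± 15.5 CPM in the nucleus accumbens, hypothalamus and hippocampus. Gabrb2 was higher in the nucleus accumbens than in the hypothalamus, at 1.63 (SE 0.33, adjusted p = 0.00114) with no overlap of libraries. The same comparison gave -0.06 among low-rate libraries (adjusted p = 0.934) and 0.14 among high-rate libraries. Gabrb1, at 301 ± 61.7, 300 ± 78.5 and 310 ± 65.1 CPM, was level across regions within its spread. Gabrr2, a rho subunit, was at 4.25 ± 1.44, 4.57 ± 2.03 and 2.68 ± 0.946 CPM.

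Both GABA-B genes were abundant. Gabbr1, which binds GABA, was at 1230 ± 97.3, 1180 ± 79.4 and 1280 ± 102 CPM in the nucleus accumbens, hypothalamus and hippocampus and was called in no pair. Gabbr2, which couples the pair to G proteins, was at 215 ± 26.6 CPM in the nucleus accumbens and 267 ± 20.5 CPM in the hypothalamus, against 540 ± 31.1 CPM in the hippocampus. Nucleus accumbens over hippocampus was -1.33 (SE 0.1, adjusted p = 2.36e-09) and hypothalamus over hippocampus -1.01 (SE 0.11, adjusted p = 1.43e-07).

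AMPA subunits separated into 3 genes that were lowest in the hypothalamus and 1 that was lowest in the hippocampus. Gria1 was at 692 ± 45.7, 544 ± 71.6 and 1650 ± 96.6 CPM, Gria2 at 1160 ± 192, 567 ± 125 and 1450 ± 260 CPM in the nucleus accumbens, hypothalamus and hippocampus. Gria3, in the same order, was at 377 ± 100, 168 ± 48.5 and 505 ± 109 CPM. Hypothalamus over hippocampus, these 3 were at -1.59 (SE 0.11), -1.35 (SE 0.16) and -1.59 (SE 0.21), with adjusted p of 4.21e-10, 8.84e-07 and 2.64e-06. Gria4, a subunit of fast receptors in interneurons, ran the other way, at 113 ± 11.7 CPM in the nucleus accumbens and 128 ± 34.5 CPM in the hypothalamus, against 56.2 ± 6.38 CPM in hippocampal libraries. Hypothalamus over hippocampus was 1.19 (SE 0.15, adjusted p = 2.19e-06). Gria2, the subunit whose RNA editing keeps calcium out of the channel, made up 30.3 ± 3.25% of the AMPA sum per kb in the nucleus accumbens, 22.2 ± 2.29% in the hypothalamus and 21.8 ± 2.31% in the hippocampus. The nucleus accumbens exceeded the hypothalamus by 8.13 points and the hippocampus by 8.52 points, each with an adjusted p of 0.0173. Shares were compared with two-sided exact permutation tests, adjusted over 72 tests of shares. The smallest p they can give is 0.00216 with 6 libraries in at least 1 group and 0.00794 with 5 against 5.

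The NMDA gene Grin2a, which encodes the subunit of mature synaptic receptors, had the lowest fold change of the 41 members in the hypothalamus against the hippocampus. Grin2a was at 109 to 271 CPM in the nucleus accumbens (median 136), at 26.4, 28.0, 33.2, 43.1 and 54.4 CPM in the hypothalamus and at 562 to 875 CPM in hippocampal libraries (median 747). Hypothalamus over hippocampus was -4.30 (SE 0.25, adjusted p = 4.88e-11), nucleus accumbens over hippocampus -2.20 (SE 0.21, adjusted p = 6.35e-08) and nucleus accumbens over hypothalamus 2.10 (SE 0.23, adjusted p = 1.06e-06). Grin2b, which forms the slower receptors that dominate early in life, was at 507 ± 42.4 CPM in the nucleus accumbens, 152 ± 32.4 CPM in the hypothalamus and 746 ± 79.4 CPM in hippocampal libraries. Its log2 fold change was -2.29 (SE 0.14, adjusted p = 1.02e-10) for hypothalamus over hippocampus and 1.74 (SE 0.14, adjusted p = 1.13e-08) for nucleus accumbens over hypothalamus. Of the summed Grin2a and Grin2b level per kb, Grin2b therefore took 70.6 ± 5.94% in the nucleus accumbens and 75.0 ± 2.97% in the hypothalamus, against 42.7 ± 1.1% in the hippocampus. The differences of 27.9 and 32.3 points had an adjusted p of 0.0173 each (exact permutation test), and the hippocampal libraries, at 41.3 to 44.6%, were well below the lowest of the other regions, at 59.9%.

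Other NMDA subunits were ordered differently. Grin2d was at 25.8 ± 5.82 CPM in the nucleus accumbens and 52.3 ± 15.7 CPM in the hypothalamus, against 11.7 ± 2.84 CPM in the hippocampus. Hypothalamus over hippocampus it was at 2.18 (SE 0.21, adjusted p = 4.86e-08) and nucleus accumbens over hypothalamus at -1.02 (SE 0.2, adjusted p = 0.00073). Grin3a, which lowers calcium entry, was at 84.0 ± 19.7, 98.6 ± 23.4 and 29.0 ± 6.65 CPM. The obligatory subunit gene Grin1 was at 362 ± 92.9, 315 ± 62 and 532 ± 123 CPM in the nucleus accumbens, hypothalamus and hippocampus. Grin2c, in the same order, was at 54.3 ± 13.5, 55.4 ± 10.5 and 74.3 ± 13.6 CPM.

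Among kainate genes, Grik1, Grik2 and Grik3 encode subunits that form channels by themselves, and Grik4 and Grik5 high-affinity partners. Grik1 was at 30.3 ± 9.43, 39.5 ± 9.32 and 14.0 ± 2.05 CPM in the nucleus accumbens, hypothalamus and hippocampus. In that order Grik2 was at 142 ± 29.1, 70.1 ± 12.7 and 80.9 ± 17.9 CPM and Grik3 at 128 ± 17.5, 126 ± 29.9 and 52.7 ± 11.7 CPM. The partners were highest in the hippocampus, Grik4 at 28.0 ± 2.72, 44.9 ± 6.57 and 74.0 ± 14.4 CPM and Grik5 at 184 ± 42.2, 167 ± 31.5 and 267 ± 84.3 CPM. Nucleus accumbens over hippocampus, Grik4 was at -1.40 (SE 0.14, adjusted p = 1.25e-07). Of the delta receptors, which bind cerebellins rather than open to glutamate, Grid1 was at 107 ± 10.8, 110 ± 17.1 and 91.7 ± 10.7 CPM, in the same order of regions.

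Metabotropic genes split by region as well. Grm5, a receptor that stimulates phospholipase C, was at 278 ± 40.6, 105 ± 32.3 and 262 ± 74.8 CPM in the nucleus accumbens, hypothalamus and hippocampus. Its log2 fold change was -1.32 (SE 0.2, adjusted p = 1.91e-05) for hypothalamus over hippocampus and 1.40 (SE 0.2, adjusted p = 3.5e-05) for nucleus accumbens over hypothalamus, and the hypothalamic libraries did not overlap with either other region. Grm2, a presynaptic inhibitory receptor, was at 9.01 ± 6.13 CPM in the nucleus accumbens and 15.1 ± 4.29 CPM in the hypothalamus, against 87.2 ± 12.5 CPM in the hippocampus. Nucleus accumbens over hippocampus was -3.32 (SE 0.28, adjusted p = 1.07e-08) and hypothalamus over hippocampus -2.49 (SE 0.28, adjusted p = 3.87e-07). Nucleus accumbens over hypothalamus it was -0.83 (SE 0.29, adjusted p = 0.0374), a call lost in 8 of 11 fits that each left out 1 library. It was -0.44 without GC-leaning libraries (adjusted p = 0.593) and -1.31 without the Neurod6-rich ones (adjusted p = 0.000286). Nucleus accumbens saline replicate 3, a Neurod6-rich library, held 21.1 CPM, above the 4.8 to 9.16 CPM of the others. Grm3, its relative that astrocytes also express, was at 36.6 ± 6.83, 16.7 ± 3.01 and 19.7 ± 2.49 CPM. Of the presynaptic receptors Grm4, Grm7 and Grm8, Grm4 was at 50.6 ± 14.4, 39.7 ± 12.8 and 11.8 ± 4.19 CPM in the nucleus accumbens, hypothalamus and hippocampus. In that order Grm7 was at 74.5 ± 9.76, 57.0 ± 10.4 and 62.3 ± 7.18 CPM and Grm8 at 9.78 ± 2.11, 18.8 ± 2.19 and 4.71 ± 2.09 CPM. Grm4 was at 2.08 (SE 0.25, adjusted p = 1.6e-06) for nucleus accumbens over hippocampus, and Grm8 at -0.93 (SE 0.22, adjusted p = 0.00402) for nucleus accumbens over hypothalamus.

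Genes for partner proteins of the receptors were compared in the same way, on the same backgrounds of 44.1, 27.9 and 29.0% of genes called. Of 13 tested auxiliary subunits of AMPA and kainate receptors, 2 were higher and 8 lower in the hypothalamus than in the hippocampus (76.9% called, median log2 -0.71). In the nucleus accumbens, 5 were higher and 5 lower than in the hippocampus (76.9%, median -0.01), and 4 higher and 1 lower than in the hypothalamus (38.5%, median 0.17). Shisa6, an AMPA receptor partner, was at -3.92 (SE 0.15) in the hypothalamus and -3.78 (SE 0.13) in the nucleus accumbens against the hippocampus, and Cacng4 at 1.89 (SE 0.2) and 1.57 (SE 0.19). Of 16 glutamate receptor scaffold genes, 12 were lower and 2 higher in the hypothalamus than in the hippocampus (87.5%, median -1.25). The nucleus accumbens had 10 lower and 2 higher than the hippocampus (75.0%, median -0.73), and 8 higher and 0 lower than the hypothalamus (50.0%, median 0.45). Homer3, which ties group 1 metabotropic receptors to the scaffold, was at -4.24 (SE 0.18) for nucleus accumbens over hippocampus. Of 15 genes for GABA receptor clustering and trafficking, 7 were lower and 3 higher in the hypothalamus than in the hippocampus (66.7%, median -0.24). For nucleus accumbens libraries, 3 were lower and 1 higher than in the hippocampus, a share of 26.7% that is near the 27.9% of all genes (median -0.08). Against the hypothalamus 7 were higher and 0 lower (46.7%, median 0.25).

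At the low insulin rate 4 receptor genes were called against saline in the hypothalamus by edgeR's test, calls that were lost when the GC-leaning libraries were left out or their lean was fitted. Gabrb2, a beta subunit of the most common GABA-A receptors, and the NMDA subunits Grin2a and Grin2b rose, and the kainate partner Grik5 fell. These 4 of 41 members (9.76%) stood on a background of 5.38% of 14139 genes, 3.59% higher and 1.78% lower. The genes lie at chr11:42419757-42629028 (Gabrb2, plus strand), chr16:9567898-9995560 (Grin2a), chr6:135713233-136173511 (Grin2b) and chr7:25009849-25072346 (Grik5), the last 3 on the minus strand (GRCm38).

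Gabrb2 was at 77.2 to 129 CPM at the low rate (median 113) and at 74.9, 76.3, 94.1, 102 and 113 CPM at the high rate, against 10.8, 36.2, 39.5, 39.8 and 67.7 CPM under saline. Every insulin library was above every saline one. For the low rate alone, 1.44% of genes lay wholly above saline, and how many did so at both rates was not counted. The log2 fold change at the low rate was 1.52 (SE 0.28, adjusted p = 0.0101) and the call held in all 11 fits that left out 1 library, with values of 1.29 to 1.79. Without the GC-leaning libraries it was 1.06 (adjusted p = 0.206), with each library's GC lean as a covariate 1.26 (adjusted p = 0.179), and without the peptide-poor libraries 1.49 (adjusted p = 0.103).

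Grin2a was at 50.2 to 102 CPM at the low rate (median 73.2) and at 45.8, 56.1, 61.2, 61.9 and 73.4 CPM at the high rate, against 26.4, 28.0, 33.2, 43.1 and 54.4 CPM under saline. Only the top saline library reached into the low-rate group. The fold change was 1.03 (SE 0.20, adjusted p = 0.0131) and the call was lost without saline replicate 1 or 2. Grin2b was at 164 to 296 CPM at the low rate (median 279) and at 197, 223, 239, 298 and 365 CPM at the high rate, against 118, 118, 161, 174 and 188 CPM under saline. At the low rate it changed by 0.76 (SE 0.18, adjusted p = 0.0309), with 1 library inside the saline range. Grik5 was at 84.8 to 137 CPM at the low rate (median 110) and at 98.2, 120, 124, 144 and 145 CPM at the high rate, against 136, 140, 160, 191 and 208 CPM under saline. The low-rate change was -0.56 (SE 0.14, adjusted p = 0.0374), with groups that met at 136 to 137 CPM. The Grin2b and Grik5 calls were each lost in 7 of 11 fits that left out 1 library. Without GC-leaning libraries the changes were 0.64 for Grin2a, 0.56 for Grin2b (adjusted p = 0.811 each) and -0.28 for Grik5 (adjusted p = 0.818). Without them, with the GC covariate, with a batch term from the library tags, without the peptide-poor libraries, or with only the 2 groups fitted, 0 members were called at the low rate in edgeR. The share of all genes called in those fits is not given here. The count of 0 is therefore not a result about the members in particular.

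**Figure D3:**
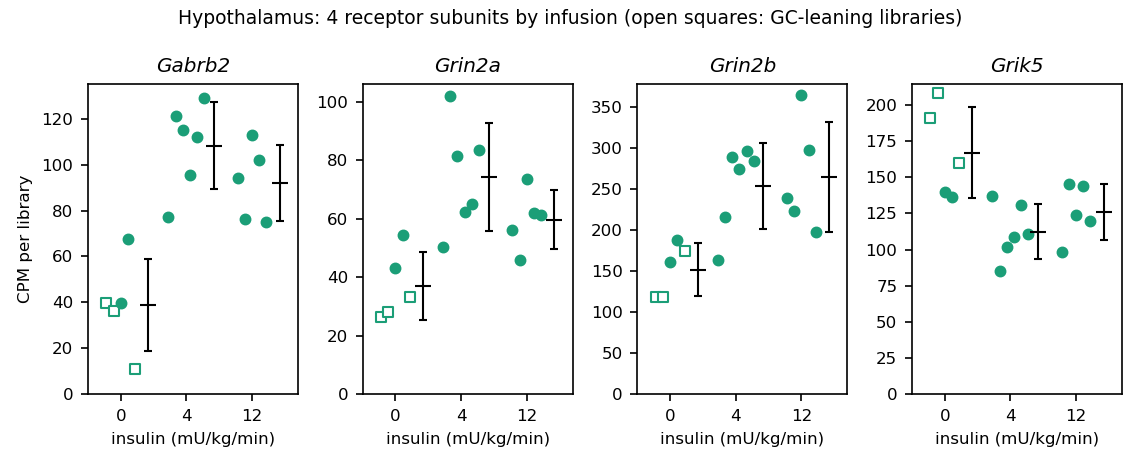
CPM of Gabrb2, Grin2a, Grin2b and Grik5 in hypothalamic libraries at insulin rates of 0, 4 and 12 mU/kg/min, with 1 point per library, open squares for GC-leaning libraries and bars for mean ± SD (n = 5, 6 and 5). Open squares occur only under saline, and the saline points of Gabrb2 lie below all insulin points.

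At the high rate 0 of 41 members passed the threshold in the hypothalamus, on a background of 0.184% of genes, 0.177% higher and 0.00707% lower. An unadjusted p under 0.05 was found for 13 members, against 24.1% of all genes. DESeq2 called 4 members, all higher, where it called 2.54% of all genes, and limma-voom 1, where it called 0.375%. The 3 with the smallest p were Gabrb2 at 1.28 (SE 0.29, adjusted p = 0.0673), Grin2b at 0.81 (SE 0.19, adjusted p = 0.0777) and Grik2 at 0.49 (SE 0.14, adjusted p = 0.125). All high-rate libraries lay above all saline ones for these 3 and for no other member, where 1.61% of all genes did. High minus low gave 0 members and 0 genes, with 0 members at an unadjusted p under 0.05, and the smallest p belonged to Gabbr2 at -0.22, Grin2a at -0.32 and Gabra5 at 0.25.

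The members' changes in the hypothalamus ran with GC content. The GC lean was measured over all genes, and in this region only saline libraries were GC-leaning. Such a tie was therefore built in for genes in general, whose split is not given here. At the low rate 25 members were above 0 and 16 below, with a median log2 of 0.15 against -0.02 for all genes, and 12 members had an unadjusted p under 0.05, against 29.9% of all genes. Of 28 members with transcripts below 50% GC, 21 were above 0 (median 0.28), and of 13 members at 50% or more, 4 were above 0 (median -0.24). With the GC covariate the numbers were 10 of 28 (median -0.05) and 9 of 13 (median 0.06). Both medians were then near 0, with the opposite sign. Gabrb2, Grin2a and Grin2b have transcripts of 44.0, 44.8 and 45.7% GC, and Grik5 of 61.7%. At the high rate 24 of 28 (median 0.29) and 3 of 13 (median -0.18) were above 0. With the covariate it was 16 of 28 (median 0.01) and 6 of 13 (median -0.02). GC lean and infusion were unevenly spread in the hypothalamus, where all GC-leaning libraries were saline ones, and their parts in these changes cannot be told apart.

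**Figure D4:**
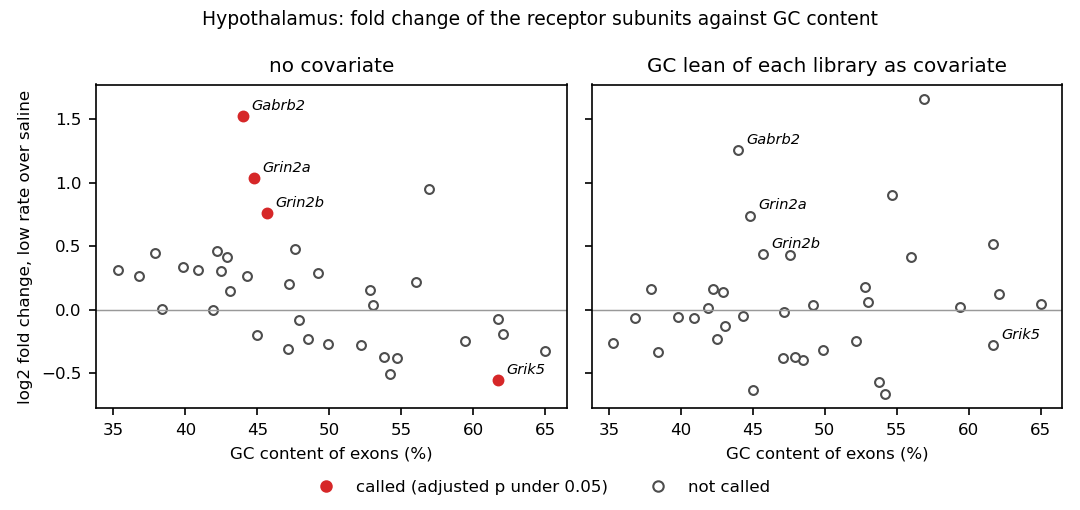
Log2 fold change of 36 receptor genes at the low rate over saline in the hypothalamus against the GC content of each gene's longest transcript. Fits are without a covariate (left) and with each library's GC lean as a covariate (right). Filled points are called at an adjusted p of 0.05: 4 on the left and 0 on the right.

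By family, the low rate in the hypothalamus called 1 of 15 GABA-A genes, 2 of 6 NMDA genes and 1 of 5 kainate genes, and 0 of 4 AMPA, 2 GABA-B, 2 delta and 7 metabotropic genes. The GABA-A share of 6.67% was near the 5.38% of all genes. Gria2 was at 673 ± 121 and 733 ± 136 CPM, against 567 ± 125 CPM, and Gria1 at 458 ± 96.7 and 524 ± 76.6 CPM, against 544 ± 71.6 CPM, neither called. As a share of AMPA genes per kb, Gria2 made up 26.4 ± 0.996% at the low rate and 26.1 ± 2.32% at the high rate, against 22.2 ± 2.29% under saline. All 6 low-rate libraries, at 24.8 to 27.7%, were above the 5 saline ones, at 18.7 to 24.6% (4.17 points, p = 0.00216, adjusted p = 0.0173, exact permutation test). The high rate, with 5 libraries against 5, differed by 3.9 points (adjusted p = 0.132). Gria2 has 36.8% GC and Gria1 48.5%, and without GC-leaning libraries the difference at the low rate was 3.42 points (adjusted p = 0.264 in the exact permutation test). As 3 of the 5 saline libraries were GC-leaning, few were left and that test could hardly pass. Grm2 was at 47.0, 35.4 and 44.5 CPM in the peptide-poor low-rate libraries 1, 2 and 6 and at 13.4 to 21.6 CPM in the other 3, against 9.79 to 20.9 CPM under saline. It was not called (0.95, SE 0.4, adjusted p = 0.128). The summed level of 8 hypothalamic peptide markers was 49 to 1310 CPM at the low rate and 174 to 1040 CPM at the high rate, against 873 to 1720 CPM under saline. In the same order, 8 general neuron markers summed to 5830 to 7000, 5470 to 6900 and 4950 to 5810 CPM. For 6 thalamic neuron markers the sums were 550 to 1110, 390 to 713 and 376 to 678 CPM. The sums of 6 GABA neuron markers had lower medians with insulin, at 967 and 970 CPM, against 1120 CPM under saline. The part of cell composition in the hypothalamic values was not tested.

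Partners of the receptors gave 2 calls at the low rate in the hypothalamus, both among the 16 scaffold genes. The 2 of 44 partner genes tested (4.55%) did not exceed the 5.38% of all genes called. The calls were Homer2 at 0.53 (SE 0.14, adjusted p = 0.0376) and Pick1, which binds AMPA receptor tails, at -0.64 (SE 0.16, adjusted p = 0.036). Neither call held with the GC lean as a covariate (adjusted p = 0.378 and 0.475) or without GC-leaning libraries (0.811 and 0.918). Of 13 auxiliary subunits and 15 GABA receptor clustering genes, 0 were called in edgeR, with medians of -0.15 and -0.02.

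In the hippocampus 0 of 39 members were called at either rate or between the rates in edgeR's test, on a background of 0.0% of 13515 genes each time, and DESeq2 and limma-voom called 0 members too. At an unadjusted p under 0.05 there were 2 members at the low rate, 1 at the high rate and 0 between the rates, against 6.05, 2.61 and 2.84% of all genes. The rho subunit Gabrr2 had the smallest p at both rates. It was at 2.85, 3.71, 5.33, 5.55, 7.91 and 10.3 CPM at the low rate and at 3.42 to 7.53 CPM at the high rate (median 4.34), against 1.54 to 3.95 CPM under saline (median 2.46). Its change was 1.13 (SE 0.32, adjusted p = 0.293) at the low rate and 0.80 (SE 0.33, adjusted p = 1.0) at the high rate. Grm2 at -0.32 and Grik2 at -0.31 followed at the low rate, and Gabrb2 at 0.84 and Grin2b at 0.47 at the high rate. There 2 high-rate libraries held 138 and 145 CPM of Gabrb2 and the other 4 held 47.6 to 66.1 CPM. High minus low, Grin2a was at 0.49 and Grin2b at 0.42, neither called.

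The balance of the NMDA subunits differed in the hippocampus although neither gene was called. Grin2b made up 49.1 ± 4.09% of Grin2a and Grin2b per kb at the low rate and 47.2 ± 3.08% at the high rate, against 42.7 ± 1.1% under saline. The low-rate libraries were at 43.8, 46.1, 47.2, 50.5, 53.0 and 54.2%, against 41.3 to 44.6% under saline, so 1 of 6 lay within the saline range. The difference was 6.43 points (p = 0.00433, adjusted p = 0.0283, exact permutation test). At the high rate the difference was 4.46 points (adjusted p = 0.0519). At the low rate Grin2a was at 215 to 779 CPM, against 562 to 875 CPM under saline, and Grin2b at 353 to 1220 CPM, against 627 to 854 CPM. The low-rate libraries also held more oligodendrocyte marker RNA, as given above. Their median of 6 choroid plexus markers was 2370 CPM, against 130 CPM under saline. Sums of 6 hippocampal field markers were 316 to 773 CPM at the low rate and 632 to 876 CPM at the high rate, against 777 to 956 CPM under saline. Those of 6 thalamic neuron markers were 134 to 822 CPM at the low rate, against 113 to 384 CPM under saline. The part of cell composition in the share was not tested. The adjusted p was 0.0708 without any 1 of saline replicates 2 to 6.

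In the nucleus accumbens 0 of 41 members were called in any of the 3 contrasts in edgeR, DESeq2 or limma-voom, on a background of 0.0% of 13769 genes. An unadjusted p under 0.05 was found for 0 members, against 1.42% of genes at the low rate, 2.37% at the high rate and 2.12% between the rates. The smallest p at the low rate belonged to Gabra2 at 0.20, Grm3 at 0.18 and Grm4 at 0.28. At the high rate Grm7 at 0.16 and Grik4 at -0.23 were among the 3 with the smallest p, and between the rates Grm8 at -0.36 and Gabbr2 at -0.19. Gabrb2, called in the hypothalamus, was at 71.2 to 167 CPM at the low rate (median 96.0) and 43.7 to 148 CPM at the high rate (median 104), against 70.7 to 167 CPM under saline (median 120).

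**Figure D5:**
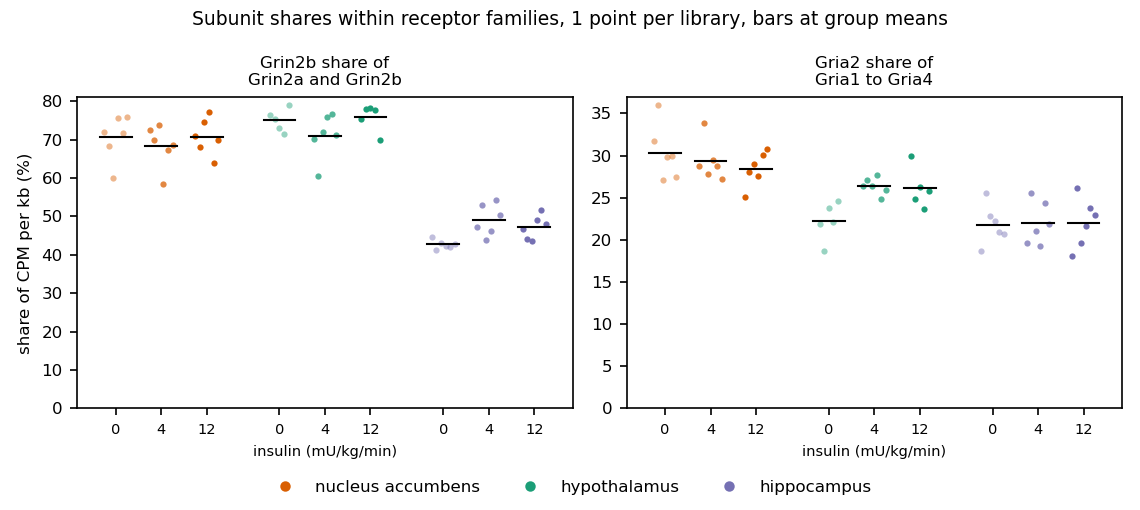
Share of a subunit within its family per kb, in percent, at insulin rates of 0, 4 and 12 mU/kg/min in each region, with 1 point per library and bars at group means, for Grin2b within Grin2a and Grin2b and for Gria2 within the 4 AMPA genes. Grin2b lies between 41.3 and 54.2% in the hippocampus and above 58% in the other regions, and Gria2 in the hypothalamus is lower under saline than at the low rate.

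Whether the insulin effect itself differed between regions was tested in 1 fit of all 52 libraries, which takes them as independent although regions may come from the same mice. None of the 6 contrasts called a member or any of 14985 genes in edgeR (background 0.0%), and limma-voom gave 0 members as well. For low-rate effects, 7 members had an unadjusted p under 0.05 in the nucleus accumbens against the hypothalamus, 9 in the hypothalamus against the hippocampus and 1 in the nucleus accumbens against the hippocampus, where 14.1, 24.3 and 5.27% of all genes did. High-rate effects gave 4, 1 and 2 in the same order, where 18.8, 9.5 and 2.38% did. The Gabrb2 effect in the nucleus accumbens minus that in the hypothalamus was -1.70 (SE 0.52, adjusted p = 0.207) at the low rate and -1.50 (SE 0.52, adjusted p = 0.228) at the high rate. In the hypothalamus minus the hippocampus the low-rate effect differed by 1.33 (SE 0.42, adjusted p = 0.116) for Grin2a and 0.74 (SE 0.26, adjusted p = 0.125) for Grik2. Grik3 differed by 0.66 (adjusted p = 0.222) in the nucleus accumbens minus the hypothalamus, and Gabrr2 by -1.37 (adjusted p = 0.445) in the nucleus accumbens minus the hippocampus. The rise of Gabrb2, Grin2a and Grin2b in the hypothalamus was thus not shown to be particular to that region.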

How the data were processed

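RNA of the 3 regions was sequenced with a stranded total RNA kit, per the labels' protocols. The authors deposited 1 table of raw read counts per gene, which the submitters' processing notes tie to STAR, featureCounts and GRCm38.p4. Their versions and the strand setting are not stated there. Of 46071 genes, 14321 had no count and 45229 matched GENCODE M21 by identifier.

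Counts were scaled by TMM in edgeR 4.0.16 (R 4.3.3), filtered on low counts and tested with the quasi-likelihood F-test, with Benjamini-Hochberg adjustment over all genes tested and a threshold of 0.05. Infusions were compared in a fit per region, regions in a fit of the saline libraries, and effects between regions in a fit of all 52. DESeq2 1.42.0, limma-voom (limma 3.58.1), other filters, scalings, batch and GC terms and left-out libraries were alternatives. Shares of subunits were taken from CPM per kb and compared with two-sided exact permutation tests. Some member genes, and the shares that need them, were tested with the rest but are not reported here. The fits were checked on simulated counts. For the low rate in the hypothalamus, with 13997 genes, 71.7% of genes changed by a log2 of 1 were recovered. Those counts were drawn gene by gene, without a GC lean, batch or tissue difference shared between genes. The check therefore does not bear on how such features affect the calls.

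Genes named in each comparison were the called members, up to 8 by p for an infusion, 10 by size for a pair of regions and 5 for a difference of effects, or otherwise the 3 or 2 with the smallest p. Members named beyond these, to cover each family and role, were chosen after their values were seen. The members, gene lists and tests were chosen with earlier results of these data known. Tag numbers in the sample titles served as possible batches. Within-group pairs of libraries differed by more than sampling noise, so none was merged.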

Additional observations from a re-analysis of the deposited data

Results flagged for a closer look

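Each value here stood apart from the rest of its group by a wide gap. Of 97 groups examined, 7 held such a value, and chance alone gives about 1 in 20.

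Among levels, Grm2 was at 110.0 CPM in hippocampus saline replicate 1 (others 76.3 to 88.9) and 21.1 CPM in nucleus accumbens saline replicate 3 (others 4.8 to 9.16), where Grin2a was also high at 271 CPM (others 109 to 167). Gabra4 was at 193 CPM in hippocampus saline replicate 2 (others 103 to 133), Gabrq at 3.16 CPM in hippocampus saline replicate 6 (others 0 to 0.713) and Gabra5 at 33.8 CPM in hypothalamus low-rate replicate 2 (others 49.9 to 57.5).

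The Gria2 share of AMPA genes was at 33.9% in nucleus accumbens low-rate replicate 2 (others 27.2 to 29.5).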

How the results depend on the processing

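The 4 calls at the low rate in the hypothalamus were the least settled result. DESeq2 called 7.0 members, and edgeR 0.0 with the tag range or tag run as batch, with only the 2 groups, with the GC covariate, without GC-leaning libraries or without the peptide-poor ones. Leaving out 1 library gave 1.0 to 7.0: 1 without saline 1 or 2, 7 without saline 4 or low-rate 1, and 2 without low-rate 2, 3, 4 or 6. At the high rate DESeq2 called 4.0 and limma-voom 1.0, and leaving out 1 library gave 0.0 to 5.0, with 5 without saline 4, 3 without saline 3 and 1 without saline 5. Shares of all genes called in the left-out, batch and GC fits are not given here. Those counts are therefore not results about the members in particular. Gabrb2 between nucleus accumbens and hypothalamus was at -0.06 among low-rate libraries. The cause was not tested.

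Counts of members called between regions ranged from 28 to 31 for hypothalamus against hippocampus, 23 to 29 for nucleus accumbens against hippocampus and 16 to 23 for nucleus accumbens against hypothalamus over all alternatives. These ranges are not set against the share of all genes called in each alternative.

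The 6 called differences of shares kept their sign. None passed without GC-leaning libraries, with adjusted p of 0.143 to 0.264 in exact permutation tests. Without the peptide-poor and Neurod6-rich libraries, none of the 4 differences that lost a library passed, with adjusted p of 0.0571 to 0.184 by the same exact tests. In either setting 0 of the 72 tests of shares passed. Fewer libraries raise the smallest p that an exact test can give, to 0.00794 with 5 against 5. These tests therefore cannot tell whether the differences depended on the libraries left out. In points, without GC-leaning libraries, the Grin2b share was at 29.86 (hypothalamus minus hippocampus), 27.98 (nucleus accumbens minus hippocampus) and 6.02 (hippocampus, low rate), and Gria2 at 7.64 (nucleus accumbens minus hippocampus), 7.11 (nucleus accumbens minus hypothalamus) and 3.42 (hypothalamus, low rate). Without the peptide-poor and Neurod6-rich libraries, Grin2b was at 30.21 and Gria2 at 9.0 (nucleus accumbens minus hippocampus), Gria2 at 8.6 (nucleus accumbens minus hypothalamus), and Gria2 at 4.08 (hypothalamus, low rate).

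Leaving out 1 library, Grin2b ranged over 31.29 to 33.2, 26.79 to 30.01 and 5.42 to 7.51 points, and Gria2 over 7.39 to 9.27, 6.99 to 8.78 and 3.28 to 4.77, in the order above. Calls of 4 of these 6 differences were lost in 5 to 7 of their 11 or 12 such tests, with adjusted p of up to 0.0708 in the exact permutation test. Gria2 at the low rate had an adjusted p of 0.0519 without any 1 low-rate library, by the same exact test. Where the larger of 2 groups, of 6 and 5 libraries, lost 1, the smallest possible p was 0.00794. Adjusted over 72 tests, such a p need not pass even where no libraries overlap. Calls lost there therefore do not show a weaker difference.

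No paired analysis was possible because the labels give the groups no shared replicate numbers. Fits with runs or ranges of tag numbers as batch are given above.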
